A study of Homo sapiens with 28 samples.

Results

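Ephrins and their Eph receptors were described in 2 human colorectal cancer (CRC) cell lines, MDST8 and LoVo. The 10 members, 5 receptors (EPHA2, EPHA4, EPHB2, EPHB3 and EPHB4) and 5 ligands (EFNA1, EFNA5, EFNB1, EFNB2 and EFNB3), were chosen by gene symbol from the 62703 genes of the count tables. The study asked how loss of TWIST1, a bHLH transcription factor of epithelial-mesenchymal transition, changed transcription. RNA-seq of poly(A) RNA was deposited for 24 libraries in 8 groups of 3. In MDST8, a wild-type (WT) group was compared with 5 groups that each came from a single-cell-derived clone edited at TWIST1 by CRISPR-Cas9, here called clones 1.1, 2.2, 3.2, 3.5 and 3.6 (labelled TG1_1, TG2_2, TG3_2, TG3_5 and TG3_6). In LoVo, cells transduced with a lentiviral shRNA against TWIST1 were compared with control cells, whose treatment label names a control shRNA although the study's own text calls them wild-type. TWIST1 ChIP-seq with an anti-TWIST1 antibody was available as 1 peak list for each unedited line. Each clone is a single edited lineage, and all 5 clones were compared with the same WT libraries. Clones 3.2, 3.5 and 3.6 share the tag TG3, and their titles all read clone TG3, so they may not be independent edits. The labels do not say whether libraries of a group came from separate cultures, so the p-values measure only the spread between these libraries.

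Eph receptors form a large family of receptor tyrosine kinases, and their ligands, the ephrins, are held on the surface of neighbouring cells. Ephrin-As are attached to the membrane by a lipid anchor and mostly bind EphA receptors, whereas ephrin-Bs span the membrane and mostly bind EphB receptors, and signals run into both cells at a contact. In the intestine, EphB receptors and ephrin-Bs lie in opposing gradients along the crypt axis, where they position cells, and EPHB2 and EPHB3 are known targets of WNT signalling.

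The TWIST1 counts went against the labels in LoVo. No read was counted for TWIST1 in any LoVo control library, and 73, 89 and 93 were counted in the libraries labelled TWIST1 shRNA. The LoVo groups are therefore named by their labels, and every LoVo direction below is that of the labels. In MDST8, WT libraries held 845, 1034 and 797 TWIST1 counts and the clones 553 to 1195. TWIST1 fell in clone 2.2 (28.3 to 30.3 CPM, a TMM-scaled read count relative to library size, against 40.0 to 51.8 CPM in WT, a log2 fold change of -0.65 ± 0.07, adjusted p = 2.37e-09 by edgeR). Clone 1.1, at 34.3 to 38.4 CPM, also lay below WT (-0.31 ± 0.07), under the fold threshold of 0.58 used here, and TWIST1 passed that threshold in no other clone. These are RNA counts, which do not measure TWIST1 protein. The clones are labelled TWIST1 KO, and the study assessed the knockout by Sanger sequencing and Western blot. Mitochondrial genes took 10.9%, 6.24% and 5.47% of the counts in the LoVo libraries labelled TWIST1 shRNA, 3.49% to 3.96% in their controls and 2.38% to 4.37% in MDST8. The library with 10.9%, TWIST1 shRNA replicate 1, also stood apart in its counts over all genes, with a chi-square per degree of freedom of 23.6 and 36.3 against its 2 partners, which differed from each other by 4.73. Without it, the same 5 members passed the threshold in LoVo, together with EPHA2, and the largest moves were EPHB4 from -0.55 to -0.41 and EFNB3 from -3.22 to -3.40. Of 12 markers of colon epithelium, MDST8 WT expressed only 2 (KRT8 and KRT18) at 1 CPM or more, with CDH1, CDX1 and CDX2 at 0 counts, but all 6 mesenchymal markers, whose summed level was 9389 to 10066 CPM in WT and 9520 to 16700 CPM in the clones. LoVo control libraries expressed all 12 epithelial markers, whose summed level was 9086 to 9414 CPM there and 4786 to 5422 CPM in the libraries labelled TWIST1 shRNA. Between the same LoVo groups, the mesenchymal sum was 220 to 224 CPM under the control label and 45.3 to 51.0 CPM under the TWIST1 shRNA label, and the fibroblast sum was 4.56 to 6.34 CPM and 55.9 to 83.2 CPM. Of 6 fibroblast markers, 4 averaged 1 CPM or more in WT, and their sum was 616 to 628 CPM in WT and 312 to 1307 CPM in the clones. All 5 immune and 4 endothelial markers averaged under 1 CPM in every group. In such bulk RNA, fewer cells of a kind and less RNA per cell cannot be told apart, and the part of these differences in the results was not tested.

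**Figure D1:**
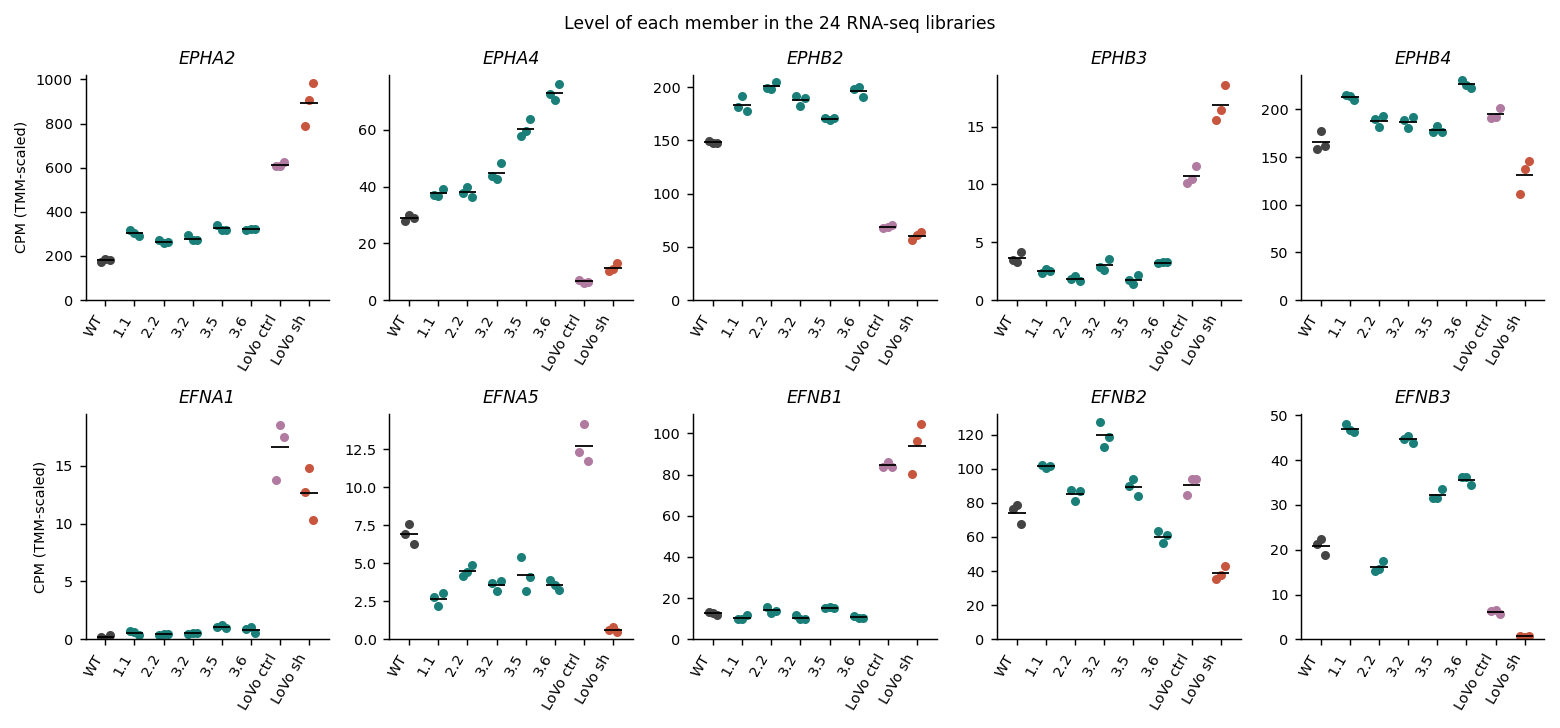
Level of each member in CPM (linear axes from 0), with 1 point per library and a bar at the mean of 3 libraries, in MDST8 WT (grey), the 5 MDST8 clones (green) and the LoVo libraries labelled shRNA control (purple) and TWIST1 shRNA (red). EFNA5 is lower in every clone library than in every WT library and lowest in the LoVo libraries labelled TWIST1 shRNA, where EFNB3 is also at its lowest.

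Within a library, members can be compared only per length, so CPM was divided by the exon length in kb. Order and shares on this scale depend on that annotated length, which was 12516 bp for EPHB2, 6437 bp for EPHB4 and 4141 bp for EPHA2. On that scale, EPHA2 was the highest of the 22 family genes (the members and 12 others) in all 8 groups. It made up 34.2% of the summed family level in MDST8 WT, 38.8% to 43.6% in the clones, 46.7% in LoVo control and 66.5% in the LoVo libraries labelled TWIST1 shRNA. EPHB4 came next in WT and in every clone, with 20.2% in WT and 15.4% to 19.4% in the clones. EFNB2 was the highest ligand in WT, at 11.6% of the family, and in LoVo control the highest ligand was EFNB1, at 8.08%. Summed over their class, EphA receptors measured 47.2 to 50.9 CPM per kb in the 3 WT libraries and 69.4 to 90.3 CPM per kb in the 15 clone libraries, which did not overlap. Most of this sum was EPHA2, which alone averaged 43.6 CPM per kb in WT and 63.8 to 78.6 CPM per kb in the clones. EphB receptors reached 42.2 to 44.8 CPM per kb in WT and 44.8 to 54.1 CPM per kb in the clones. The B ephrins summed to 44.1 to 47.0 CPM per kb in LoVo control against 31.6 to 40.6 CPM per kb in the libraries labelled TWIST1 shRNA. Between the same LoVo groups, A ephrins measured 39.8 to 43.9 against 24.5 to 29.1 CPM per kb. EphB receptors measured 41.7 to 44.6 against 29.2 to 36.4 CPM per kb. The EphA sum went the other way, with 184 to 189 against 201 to 250 CPM per kb.

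**Figure D2:**
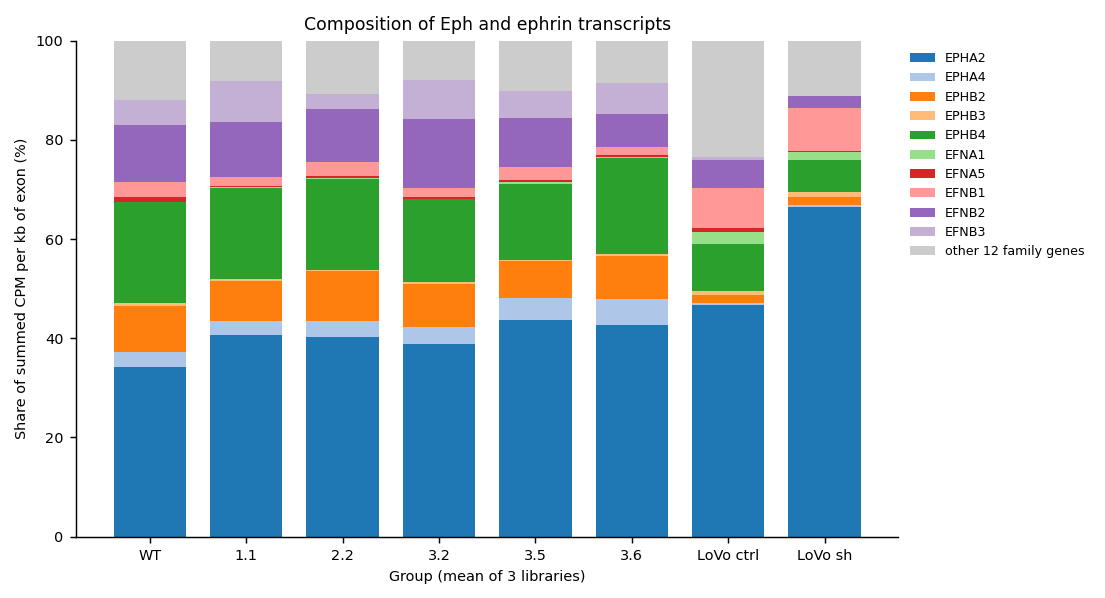
Share of each member, and of the other 12 family genes together, in the summed CPM per kb of exon (%), mean of 3 libraries per group. EPHA2 is the largest share in every group and reaches 66.5% in the LoVo libraries labelled TWIST1 shRNA.

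A gene was called when its log2 fold change passed 0.58 in size and its p-value from the quasi-likelihood test of edgeR, adjusted by Benjamini-Hochberg over all genes tested, was below 0.05. All adjusted p-values below are of this kind. Fold changes are on the log2 scale with a standard error (SE) from the same edgeR fit, which pools the spread over all its groups of 3 libraries. In MDST8, 9 of the 10 members were tested, since EFNA1 fell under the filter on low counts. In clone 1.1, 2 members were called higher and 1 lower, against 12% and 7.49% of all genes. Clone 2.2 had 0 members called higher (background 8.05%) and 2 lower (6.64%). Its members that were not called had changes from -0.38 ± 0.07 (EFNB3) to 0.54 ± 0.04 (EPHA2), all under the fold threshold. DESeq2 and limma with voom also called 0 members higher there. In clone 3.2, 4 were called higher (10.9%) and 1 lower (6.09%). Clone 3.5 had 3 higher (11.2%) and 2 lower (7.25%), and clone 3.6 had 3 higher (15.3%) and 1 lower (11.7%). The members' median log2 fold change was 0.35, 0.17, 0.34, 0.26 and 0.40 in clones 1.1, 2.2, 3.2, 3.5 and 3.6, where the median of all genes lay between -0.01 and 0.00. In LoVo, all 10 members were tested, and 2 were called higher and 3 lower, where 26.6% and 26.1% of all genes were called. The LoVo median of the members was -0.28, against 0.01 over all genes.

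**Figure D3:**
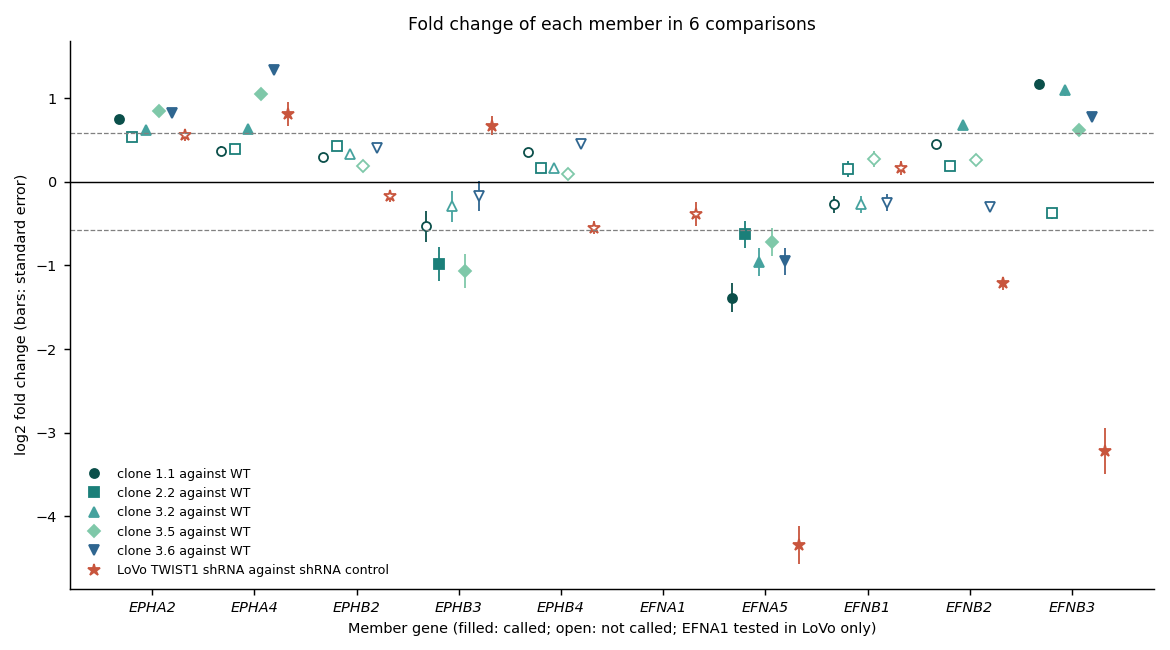
Log2 fold change of each member with its SE in the 5 clones against WT and in LoVo as labelled, filled where called, with dashed lines at the threshold of 0.58. EFNA5 is called lower in each clone and, going by the labels, in LoVo, where EFNB3 is also lower while it is higher in 4 clones.

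EPHA2 (ENSG00000142627.13, hg38 chr1:16124337-16156069, minus strand) encodes a receptor of A ephrins that is widely expressed in epithelial tumours. Its level was 174, 188 and 180 CPM in the 3 WT libraries, 319, 303 and 290 CPM in clone 1.1 and 272, 259 and 262 CPM in clone 2.2. The clone 3.2 libraries had 293, 272 and 272 CPM, those of clone 3.5 had 338, 320 and 319 CPM, and those of clone 3.6 had 317, 323 and 320 CPM. Every clone library thus lay above every WT library. EPHA2 rose in clones 1.1 (0.75 ± 0.04), 3.2 (0.62 ± 0.04), 3.5 (0.84 ± 0.04) and 3.6 (0.82 ± 0.04), with adjusted p-values of 7.03e-18, 1.26e-15, 4.07e-19 and 2.22e-19. In clone 2.2 the change was 0.54 ± 0.04 (adjusted p = 9.20e-14), under the fold threshold. LoVo libraries labelled shRNA control had 606, 608 and 624 CPM and those labelled TWIST1 shRNA 791, 906 and 982 CPM, again without overlap. That change of 0.56 ± 0.07 (adjusted p = 1.99e-06) stayed just under the fold threshold, and it was 0.67 (adjusted p = 6.43e-15) without the LoVo TWIST1 shRNA library with the highest mitochondrial share. LoVo control libraries exceeded MDST8 WT, with a WT minus LoVo difference of -1.76 ± 0.05 (adjusted p = 2.28e-25).

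EPHA4 (ENSG00000116106.12, chr2:221418027-221574202, minus strand) encodes a receptor that binds ephrins of both classes. WT libraries had 27.9, 29.9 and 29 CPM, clone 1.1 had 36.9, 36.6 and 39.2 CPM and clone 2.2 had 37.9, 40.0 and 36.5 CPM. Higher levels were measured in clone 3.2 (43.9, 42.7 and 48.2 CPM), clone 3.5 (58, 59.7 and 63.7 CPM) and clone 3.6 (72.5, 70.4 and 76.1 CPM). The order of the groups was WT, then clones 1.1 and 2.2, whose libraries overlapped, then 3.2, 3.5 and 3.6, which did not. EPHA4 rose by 0.63 ± 0.06 in clone 3.2 (adjusted p = 3.38e-11), 1.05 ± 0.06 in clone 3.5 (adjusted p = 3.27e-17) and 1.33 ± 0.06 in clone 3.6 (adjusted p = 9.49e-21). Clones 1.1 and 2.2 had changes of 0.37 ± 0.06 and 0.39 ± 0.06, under the fold threshold, and without replicate C of clone 3.2 the change there was 0.57. The levels in LoVo were lower, 7.1, 6.18 and 6.40 CPM under the control label and 10.4, 10.9 and 12.9 CPM under the TWIST1 shRNA label, where EPHA4 also rose (0.81 ± 0.14, adjusted p = 7.30e-05). Counting did not use the strand, and 353 bp of EPHA4 exons are shared with an opposite-strand lncRNA, so reads of the pair cannot be told apart there.

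EPHB3 (ENSG00000182580.3, chr3:184561785-184582408, plus strand), a receptor of B ephrins at the crypt base, had low counts in MDST8. WT libraries held 66, 66 and 83 counts (3.46, 3.31 and 4.16 CPM), clone 2.2 held 36, 43 and 31 (1.84, 2.08 and 1.63 CPM), and clone 3.5 held 29, 26 and 43 (1.69, 1.37 and 2.16 CPM). Both clones lay below WT without overlap, and EPHB3 fell in clone 2.2 (-0.98 ± 0.20, adjusted p = 8.04e-05) and clone 3.5 (-1.07 ± 0.20, adjusted p = 2.75e-05). Clone 1.1, at 2.37 to 2.69 CPM, had a change of -0.53 ± 0.19 (adjusted p = 0.0147) that was called as -0.59 without WT replicate B and without its own replicate B. Levels of 2.62 to 3.51 CPM in clone 3.2 overlapped WT, and in clone 3.6 they were 3.19 to 3.27 CPM. In LoVo, EPHB3 measured 10.1, 10.4 and 11.6 CPM under the control label and 15.6, 16.5 and 18.6 CPM under the TWIST1 shRNA label. It rose there by 0.67 ± 0.12 (adjusted p = 5.22e-05), the direction opposite to that in clones 2.2 and 3.5.

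EPHB2 (ENSG00000133216.17, chr1:22710839-22921500, plus strand) and EPHB4 (ENSG00000196411.10, chr7:100802565-100827523, minus strand), the other B receptors, were called in no clone and not in LoVo. EPHB2, another receptor of the crypt base, measured 148 to 150 CPM in WT and 169 to 204 CPM over the clones, so that every clone library exceeded every WT library. Its changes ran from 0.19 ± 0.04 in clone 3.5 to 0.42 ± 0.04 in clone 2.2, all below the fold threshold, with adjusted p-values of 3.07e-05 and 2.82e-12. LoVo libraries had 67.6 to 70 CPM of EPHB2 under the control label and 56.2 to 63.8 CPM under the TWIST1 shRNA label (-0.17 ± 0.07, adjusted p = 0.0246). EPHB4, whose ligand is ephrin-B2 and which is known from veins, measured 158 to 178 CPM in WT, 209 to 215 CPM in clone 1.1 and 223 to 231 CPM in clone 3.6, while clones 2.2, 3.2 and 3.5 lay between 176 and 193 CPM. Its changes of 0.35 ± 0.04 in clone 1.1 and 0.45 ± 0.04 in clone 3.6 were the 2 largest. In LoVo, EPHB4 had 191 to 201 CPM under the control label and 112, 138 and 145 CPM under the TWIST1 shRNA label. That change of -0.55 ± 0.08 (adjusted p = 7.31e-06) passed the threshold only without TWIST1 shRNA replicate 3 (-0.61) and without the filter on low counts (-0.61). EPHB2 shares 34 bp of exon with the opposite-strand MIR4253 and EPHB4 69 bp with SLC12A9.

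EFNA5 (ENSG00000184349.14, chr5:107376894-107670937, minus strand), a lipid-anchored ligand that binds EphA receptors and EPHB2, was called lower in each of the 5 clones and, going by the labels, in LoVo. No other member was called in 1 direction in all of these, and with the LoVo labels exchanged its LoVo change would be opposite to that in the clones. Counts were 132, 151 and 125 in the WT libraries (6.93, 7.57 and 6.27 CPM). Clone 1.1 had 2.79, 2.18 and 3.03 CPM, clone 2.2 had 4.2, 4.45 and 4.88 CPM and clone 3.2 had 3.71, 3.2 and 3.84 CPM. Clones 3.5 and 3.6 had 5.43, 3.21 and 4.11 CPM and 3.91, 3.54 and 3.27 CPM. No clone library reached the lowest WT library, whereas clones 2.2, 3.5, 3.2 and 3.6 overlapped their neighbours in level. EFNA5 fell by 1.39 ± 0.17 in clone 1.1 (adjusted p = 1.50e-08), by 0.63 ± 0.16 in clone 2.2 (adjusted p = 0.00114) and by 0.96 ± 0.16 in clone 3.2 (adjusted p = 6.00e-06). In clones 3.5 and 3.6 it fell by 0.72 ± 0.16 (adjusted p = 2.67e-04) and 0.95 ± 0.16 (adjusted p = 4.13e-06). The call in clone 2.2 was lost without WT replicate B (-0.55) and that in clone 3.5 without its own replicate B (-0.55). LoVo libraries labelled shRNA control held 194, 270 and 198 counts (12.3, 14.1 and 11.7 CPM), and those labelled TWIST1 shRNA held 11, 13 and 8 counts (0.597, 0.790 and 0.463 CPM). The LoVo change was -4.34 ± 0.23 (adjusted p = 2.24e-11), and it lay between -4.53 and -4.16 when any single library was left out.

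EFNB3 (ENSG00000108947.5, chr17:7705202-7711372, plus strand), a transmembrane ligand best known from the nervous system, varied most among the clones of the members tested. WT libraries had 21.3, 22.4 and 18.8 CPM, clone 1.1 had 47.9, 46.8 and 46.4 CPM and clone 3.2 had 44.7, 45.3 and 43.9 CPM. Clone 3.5 reached 31.5, 31.6 and 33.7 CPM and clone 3.6 reached 36.3, 36.3 and 34.4 CPM, whereas clone 2.2, at 15.3, 15.8 and 17.4 CPM, lay below WT. None of the 6 MDST8 groups overlapped another. EFNB3 rose in clones 1.1 (1.17 ± 0.06, adjusted p = 9.97e-18), 3.2 (1.09 ± 0.06, adjusted p = 8.34e-17), 3.5 (0.62 ± 0.07, adjusted p = 4.06e-10) and 3.6 (0.77 ± 0.06, adjusted p = 6.02e-13). The change in clone 2.2 was -0.38 ± 0.07 (adjusted p = 2.92e-05), and the call in clone 3.5 was lost without WT replicate C (0.56). In LoVo, 101, 126 and 94 counts under the control label stood against 15, 7 and 12 under the TWIST1 shRNA label (6.40, 6.60 and 5.57 against 0.815, 0.426 and 0.695 CPM). EFNB3 fell there by 3.22 ± 0.27 (adjusted p = 1.35e-08).

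EFNB2 (ENSG00000125266.8, chr13:106489745-106535662, minus strand) encodes the transmembrane ligand of EPHB4. Libraries of WT had 76.1, 78.7 and 67.3 CPM and those of clone 3.2 had 128, 113 and 118 CPM. EFNB2 rose in clone 3.2 (0.68 ± 0.05, adjusted p = 2.15e-13), the only clone in which it was called. Clone 1.1, at 100 to 102 CPM, also lay above WT (0.45 ± 0.05), whereas clone 3.6, at 56.3 to 63.3 CPM, lay below it (-0.30 ± 0.06, adjusted p = 1.37e-05). LoVo libraries had 84.3, 94.1 and 93.7 CPM under the control label and 35.4, 37.5 and 43.2 CPM under the TWIST1 shRNA label, and EFNB2 fell there by 1.21 ± 0.08 (adjusted p = 3.62e-10). An opposite-strand lncRNA shares 1822 bp of EFNB2 exon, so the split of reads between them is uncertain.

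EFNB1 (ENSG00000090776.6, chrX:68829021-68842160, plus strand), the remaining B ephrin, was called neither in a clone nor in LoVo. It measured 11.8 to 13.4 CPM in WT, 9.87 to 11.9 CPM in clone 1.1 and 15.3 to 15.5 CPM in clone 3.5, and its changes in the clones ran from -0.27 ± 0.10 to 0.27 ± 0.10. LoVo libraries had 83.6 to 86.3 CPM under the control label and 80.1 to 105 CPM under the TWIST1 shRNA label, which overlapped (0.16 ± 0.08, adjusted p = 0.0709). EFNA1 (ENSG00000169242.12, chr1:155127876-155134899, plus strand), an A ephrin that binds EPHA2, was near the limit of detection in MDST8. Only 4, 1 and 7 counts were found in WT, against 7 to 14 in clone 1.1, 8 to 10 in clone 2.2, 9 to 12 in clone 3.2, 19 to 24 in clone 3.5 and 12 to 22 in clone 3.6. In LoVo, 217, 354 and 295 counts of EFNA1 under the control label and 235, 243 and 178 under the TWIST1 shRNA label overlapped in CPM (-0.38 ± 0.14, adjusted p = 0.0198). With a different filter (filterByExpr), EFNA1 could be tested in MDST8 and was called higher in clones 1.1, 3.2, 3.5 and 3.6 (1.45, 1.36, 2.4 and 2.01) but not in clone 2.2 (1.13, adjusted p = 0.0786).

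The spread among the 5 clones was tested with an F test in the same fit, where 32.0% of all genes were called at a range over 0.58. Of the members, 5 of 9 tested passed, namely EPHA4, EPHB3, EFNA5, EFNB2 and EFNB3. The range of the log2 levels over the clones was 1.55 for EFNB3 (adjusted p = 3.95e-20), 0.98 for EFNB2 (adjusted p = 2.41e-16) and 0.96 for EPHA4 (adjusted p = 3.53e-18). It was 0.90 for EPHB3 (adjusted p = 2.76e-04) and 0.76 for EFNA5 (adjusted p = 0.00404). EPHA2 had a range of 0.30 and EPHB2 one of 0.24, both under the fold threshold. EFNB1 had a range of 0.54 and was called at 0.63 without replicate C of clone 1.1 and at 0.61 without replicate A of clone 3.2. The members' median range was 0.76, against 0.44 over all genes.

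The effects in the 2 lines were then compared in a fit of all 24 libraries, as the LoVo effect minus the mean of the 5 clone effects. There 1 member was called higher and 5 lower, where 26.0% and 24.6% of all genes were called. EFNB3 differed by -3.90 ± 0.19 (adjusted p = 6.08e-19), from -3.24 ± 0.18 in LoVo and 0.66 ± 0.06 in the clones. EFNA5 was lower in both lines, at -4.36 ± 0.22 in LoVo and -0.92 ± 0.12 in the clones, and the difference of -3.44 ± 0.26 was called (adjusted p = 1.26e-13). EFNB2 differed by -1.50 ± 0.08 (-1.23 in LoVo and 0.26 in the clones, adjusted p = 3.69e-17). EPHB4 differed by -0.82 ± 0.07 (-0.57 and 0.25, adjusted p = 4.36e-12) and EPHB3 by 1.26 ± 0.18 (0.66 and -0.60, adjusted p = 1.35e-07), so that both receptors had opposite signs in the 2 lines. EFNA1 was called at -2.07 ± 0.42 (adjusted p = 4.05e-05), a value that rests on 1 to 7 counts in MDST8 WT. With the LoVo labels as given, the A receptors were not called, since EPHA2 differed by -0.18 ± 0.07 and EPHA4 by 0.04 ± 0.11, from 0.80 ± 0.10 in LoVo and 0.76 ± 0.05 in the clones. This contrast carries the LoVo labels, against which the TWIST1 counts went. With those labels exchanged, which turns every LoVo sign, 6 members would again differ but not the same ones, with 24.8% of all genes called higher and 25.3% lower. EPHA2 (-1.26 ± 0.07) and EPHA4 (-1.56 ± 0.11) would then be called, with adjusted p-values of 6.57e-18 and 3.49e-14, whereas EPHB3 (-0.05 ± 0.18, adjusted p = 0.823) and EPHB4 (0.31 ± 0.07) would not. EFNA5 and EFNB3 would differ by 5.28 ± 0.25 and 2.57 ± 0.20.

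**Figure D4:**
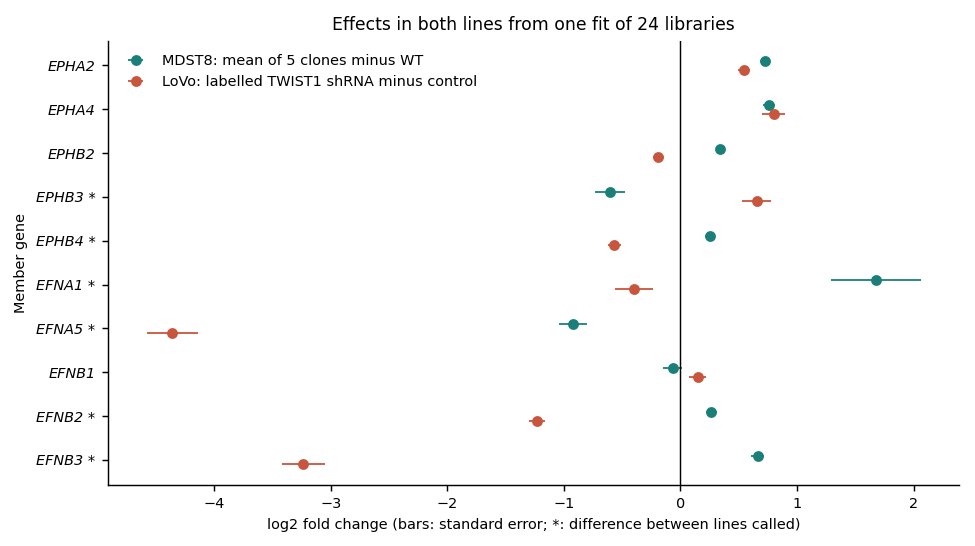
Log2 fold change with its SE for each member in LoVo as labelled (red) and as the mean of the 5 MDST8 clones (green), from a single fit of 24 libraries, with an asterisk where the difference between lines was called. EPHA2 and EPHA4 lie close together in both lines with the labels as given, and EFNB3 lies at 0.66 in MDST8 and -3.24 in LoVo.

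Between the unedited or control states of the lines, 8 of 10 members differed. EPHA4, EPHB2 and EFNB3 were higher in MDST8 WT than in LoVo control, by 2.15 ± 0.09, 1.11 ± 0.04 and 1.75 ± 0.09, where 34.0% of all genes were called higher. Lower in MDST8 WT were EPHA2, EPHB3 (-1.56 ± 0.14), EFNA1 (-6.31 ± 0.28), EFNA5 (-0.88 ± 0.15) and EFNB1 (-2.74 ± 0.09), against 30.6% of all genes. EPHB4 (-0.23 ± 0.06) and EFNB2 (-0.29 ± 0.06) differed by less than the fold threshold. The lines also differ in background and in the epithelial and mesenchymal markers given above, and the part of these in the differences was not tested.

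Of the other 12 family genes, 4 were tested in MDST8 and 6 in LoVo. EPHB1, a neuronal B receptor, had 520 to 557 counts in WT and fell in clones 1.1 (-1.44 ± 0.09), 3.2 (-1.63 ± 0.09) and 3.6 (-1.40 ± 0.09), whereas it measured 0.49 ± 0.08 and 0.36 ± 0.08 above WT in clones 2.2 and 3.5. EPHA5 fell in clones 3.5 (-1.18 ± 0.11) and 3.6 (-0.91 ± 0.10). EPHB6, which lacks kinase activity, fell in clone 2.2 (-1.10 ± 0.36) from 20 to 26 counts in WT, and EFNA4 was called in no clone, with changes from 0.01 to 0.55. Neither EPHB1 nor EPHA5 exceeded 1 count in a LoVo control library. In LoVo, EPHA1 fell from 166 to 172 CPM under the control label to 34.5 to 43.7 CPM under the TWIST1 shRNA label (-2.06 ± 0.08, adjusted p = 3.36e-13), and EFNA4 fell by 0.85 ± 0.13 (adjusted p = 1.55e-05). EPHA10, EPHB6, EFNA2 and EFNA3 were not called there (0.28, -0.19, -0.44 and -0.24). EPHA3, EPHA6, EPHA7 and EPHA8 were tested in neither line, since they fell under the filter over all libraries of a fit. EPHA7 nevertheless had 59 to 63 counts in clone 2.2 and 12 to 24 in clone 3.6, against 2 to 4 in WT. EPHA3 had 9 to 12 counts in clone 1.1 and 9 to 17 in clone 3.2, against 0 to 1 in WT.

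Downstream partners of Eph signalling, a list of 46 adaptors, exchange factors, kinases and phosphatases, were then counted. Of 41 tested in MDST8, 6 were called higher and 0 lower in clone 1.1, 2 and 3 in clone 2.2, 5 and 0 in clone 3.2, 5 and 0 in clone 3.5, and 5 and 2 in clone 3.6. Over all genes, the shares called were 8.05% to 15.3% higher and 6.09% to 11.7% lower, so that 2 to 6 of 41 called higher is near the background. The list's median stayed between 0.03 and 0.11 in the clones. GRB10, an adaptor of receptor tyrosine kinases, rose in 4 clones (1.15 to 1.62) and was 0.51 ± 0.05 in clone 2.2. TIAM1, an exchange factor of RAC1 that is recruited by Eph receptors, rose in the same 4 clones (1.48 to 2.58), against 0.37 ± 0.08 in clone 2.2. GRIP1, a PDZ protein that binds ephrin-Bs, rose in all 5 clones (1.22 to 2.62) from 16 to 30 counts in WT. KALRN, an exchange factor acting with EphB receptors in neurons, rose in clones 1.1, 2.2, 3.2 and 3.5 (0.84 to 0.95), and LIMK1, a kinase of cofilin, rose in clones 1.1, 3.2, 3.5 and 3.6 (0.61 to 0.94). In LoVo, 8 of 44 partners were called higher and 14 lower, with a median of -0.15, where 26.6% and 26.1% of all genes were called. TIAM1 rose there from 10, 19 and 13 counts to 1365, 1369 and 1513 (6.66 ± 0.14), and FYN, a SRC-family kinase, rose by 2.00 ± 0.11. GRIP1 (-2.63 ± 0.27), KALRN (-2.00 ± 0.12), the ephrin-B-binding phosphatase PTPN13 (-2.23 ± 0.06) and the RAC-inactivating CHN2 (-1.78 ± 0.16) fell.

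EPHB2 and EPHB3 were also set beside crypt base and WNT target genes. Of 9 such genes tested in MDST8, 2, 1, 2, 1 and 3 were called higher in clones 1.1, 2.2, 3.2, 3.5 and 3.6, and 0, 1, 0, 1 and 1 lower, where 8.05% to 15.3% of all genes were called higher and 6.09% to 11.7% lower. NKD1, a WNT inhibitor and target, rose in all 5 clones (0.66 to 1.83), and AXIN2, another WNT target, rose in clones 3.2 (0.59) and 3.6 (0.76). LEF1, a WNT effector, fell in clones 2.2 and 3.5 (-0.63 in both). EPHB3 was also called lower in clones 2.2 and 3.5, but NKD1 rose there (0.66 and 1.08) and AXIN2 was not called (0.03 and 0.16). A link between these genes was not tested. In LoVo, 3 of 15 tested were called higher and 8 lower (median -0.86), against 26.6% and 26.1% of all genes, among them LEF1 (-4.42 ± 0.15) and AXIN2 (-3.60 ± 0.07), whereas NKD1 measured 0.03 ± 0.10. EPHB3 rose and EPHB2 was not called in the same libraries. Of 10 surface epithelium genes, 1 was tested in MDST8, CA2, which rose in all 5 clones (1.54 to 3.26) from 12 to 22 counts in WT. In LoVo, 9 were tested, and 8 fell while CA2 rose (0.92 ± 0.08).

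The genes most like each member over the 8 group means of log2 CPM were read from 12446 protein-coding genes outside the family, as a description. For EFNB3 they were OSBPL1A (Pearson r 0.997) and MAML2 (0.993), for EFNA5 AKAP5 (0.990) and HSD17B2 (0.988), and for EPHA2 BBLN (0.994) and DNAJC16 (0.992). EPHA4 was most like GPR137B (0.994) and NAGLU (0.993), EPHB2 like PCDHB14 (0.996) and TGOLN2 (0.994), EPHB3 like DEPDC1B (0.993) and GSTZ1 (0.991), and EPHB4 like SPAST (0.991) and SNRNP35 (0.976). EFNA1 was most like ICA1 (0.997) and MAP7 (0.996), EFNB1 like MRRF (0.997) and EPAS1 (0.997), and EFNB2 like SMARCA4 (0.957) and STS (0.956). The 8 points share libraries and the split between the 2 lines.

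TWIST1 peaks were read at the members to see where the antibody signal lay, with a peak counted at a gene when any of it lay within 3000 bp of that gene's 5′ end. In MDST8, 7 of 10 members had such a peak, against 70.8% of 20044 protein-coding genes, and in LoVo 6 of 10 had one, against 57.2%. These shares lie near the background of the lists. All 5 receptors had a peak in MDST8, together with EFNA5 and EFNB2, and EFNB3 had a peak in neither line. At a p-value cut-off of 0.001, 5 members had one in MDST8 (23.2% of genes), all of them receptors, and 1, EFNA5, in LoVo (17.3%). No peak at a member reached a q-value of 0.05. The peak with the lowest p-value lay at EPHA4 in MDST8 (chr2:221573798-221574306, 3.45-fold enrichment, a p-value of 4.65e-05 and a q-value of 0.274), its summit 223 bp downstream of the gene's 5′ end. EPHA4 has another start further in, that of its canonical transcript, and the same summit lies at -1675 bp from it. At EFNA5, the LoVo peak (chr5:107672877-107673116, 2.96-fold, with a p-value of 1.27e-04 and a q-value of 0.426) had its summit at -2077 bp from the 5′ end, and the MDST8 peak (2.29-fold, with a p-value of 0.00739 and a q-value of 1.0) at -2877 bp. Each list came from 1 ChIP library, so peaks have no replicate check. In the RNA of the LoVo control libraries, TWIST1 had no counted read, and whether the LoVo peaks hold TWIST1 was not tested.

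**Figure D5:**
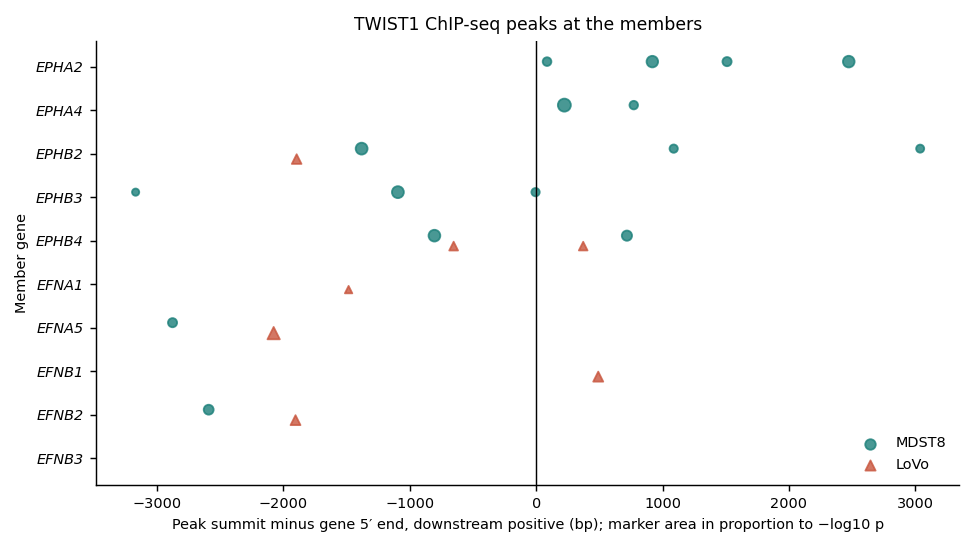
Position of each TWIST1 peak summit relative to the 5′ end of the member (bp, downstream positive) in MDST8 (circles) and LoVo (triangles), with marker area in proportion to -log10 of the peak's p-value. The marker of lowest p-value is at EPHA4, 223 bp downstream, and EFNB3 has none.

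RefSeq promoter sequences (GRCh38.p14, the 250 bases before each start) were found for 9 of the 10 members. EPHA4 and EPHB3 are shown because an MDST8 peak overlaps the sequence itself, and EPHB4 because it holds the only CATCTG, the E-box form that TWIST1 is known to bind. E-boxes (CANNTG) are in capitals. EPHA4 has none in chr2:221574203-221574452 (minus strand), nor in the RefSeq promoter of its canonical start (chr2:221572359-221572554), which no peak overlaps, EPHB3 has CAACTG and CAGCTG in chr3:184561535-184561784 (plus strand), and EPHB4 has 1 in chr7:100827524-100827773 (minus strand).
EPHA4: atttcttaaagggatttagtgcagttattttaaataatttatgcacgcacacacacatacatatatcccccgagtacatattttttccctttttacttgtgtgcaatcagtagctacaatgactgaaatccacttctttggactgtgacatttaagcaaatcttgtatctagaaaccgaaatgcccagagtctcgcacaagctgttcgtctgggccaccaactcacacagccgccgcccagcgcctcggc
EPHB3: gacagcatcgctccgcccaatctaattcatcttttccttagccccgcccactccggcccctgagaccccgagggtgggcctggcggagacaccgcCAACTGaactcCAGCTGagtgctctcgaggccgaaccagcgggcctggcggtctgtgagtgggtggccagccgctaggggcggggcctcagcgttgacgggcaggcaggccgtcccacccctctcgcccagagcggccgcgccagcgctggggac
EPHB4: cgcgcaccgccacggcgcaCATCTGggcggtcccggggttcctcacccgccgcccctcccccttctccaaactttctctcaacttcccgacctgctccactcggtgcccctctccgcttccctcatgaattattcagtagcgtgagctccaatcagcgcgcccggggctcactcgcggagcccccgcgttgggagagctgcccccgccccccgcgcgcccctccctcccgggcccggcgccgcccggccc
Both strands were searched in windows of 300 bases around the start, and CATCTG, which is itself a CANNTG, occurred in 14.7% of 35116 RefSeq promoters and CANNTG in 68.7%. EPHA4, called higher in 3 clones, had the peak of lowest p-value and no E-box in either window. Neither window holds the summit of that peak, so the bases there were not searched. EPHB3, called lower in clones 2.2 and 3.5, had 2 E-boxes and an overlapping peak. That peak had 1.95-fold enrichment (with a p-value of 0.0168 and a q-value of 1.0). A stronger MDST8 peak at EPHB3, outside the sequence shown, had 3.12-fold enrichment (with a p-value of 2.24e-04 and a q-value of 0.531). A match of these letters is not a binding site.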

How the data were processed

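RNA-seq counts of fragments per gene were deposited without normalization. Per the labels and the study's methods, the authors trimmed reads with Trim Galore 0.6.6, aligned them to hg38 with HISAT2 2.1.0 and counted them on GENCODE 43 genes with featureCounts 2.0.0. The tables' header shows that strand was not used, although the libraries were directional. The deposited exon length in bp, another value, was used to scale levels per kb. The authors called ChIP-seq peaks with MACS2 2.2.7.1 after Bowtie2 2.4.5 and kept those at p below 0.05. Each deposited peak has a fold enrichment (a ratio), a score, a p-value and q-value as −log10, and the distance of its summit from its start in bp, another value. Peaks of both lists were read as hg38. Whether the input served as control is not given in the sources used here.

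Genes whose geometric mean over the libraries of a fit was under 1 RPM (taken on RPM + 1, with the 1 then removed) were left out, leaving 13706 genes in MDST8 (18 libraries), 14270 in LoVo (6) and 14185 in the fit of all 24. Counts were scaled by TMM and tested with edgeR 4.0.16, two-sided, by groups taken from the labels. Levels are CPM scaled by TMM over all 24 libraries. Library totals ran from 16567606 to 22217009. No pair of libraries of a group agreed within sampling noise, and LoVo TWIST1 shRNA replicate 1 differed most from its partners. Replicate letters in MDST8 showed no pairing of the libraries. A correlation of deviations above 0.1 was found in 3 of 45 same-letter pairs and in 5 of 90 pairs of different letters. Alternatives were DESeq2 1.42.0, limma 3.58.1, other scalings and filters, a replicate block, the compared groups alone, each library left out, and other peak windows and cut-offs. The fit was tested on simulated data. Members, lists and tests were chosen with earlier results of these data known. The text names all 10 members, every other family gene that was tested, partners called in the same direction in 4 or more clones or above 1.5 in LoVo, the 3 WNT target and surface genes with the largest mean change, and the 2 genes most like a member. Positions come from GENCODE 44 and the peak lists. No protein sequence is given.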

Additional observations from a re-analysis of the deposited data

Results flagged for a closer look

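The effect in LoVo, as labelled, and the mean effect of the 5 MDST8 clones differed for 6 of the 10 members by the test of the difference itself, in a fit of all 24 libraries. On the log2 scale the LoVo effect minus the clone effect was 1.26 for EPHB3, -0.82 for EPHB4, -2.07 for EFNA1, -3.44 for EFNA5, -1.50 for EFNB2 and -3.90 for EFNB3. Over the 24 fits that each left out 1 library, all of these 6 calls were made in every fit. The lines differ in the way TWIST1 was targeted, and in LoVo the TWIST1 counts went against the labels, so the line, the method and the labels cannot be told apart in these differences. With the LoVo labels exchanged, EPHA2 (-1.26) and EPHA4 (-1.56) would differ and EPHB3 (-0.05) and EPHB4 (0.31) would not. LoVo TWIST1 shRNA replicate 1, which stood apart from its partners, was 1 of the libraries left out. No formal test for outlying samples was run in the groups of 3 libraries.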

How the results depend on the processing

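Of the members called, the number changed little. When each library was left out in turn, clone 1.1 had 3 to 4 members called, clone 2.2 had 1 to 2, clones 3.2 and 3.5 had 4 to 5 each, clone 3.6 had 4, the spread among clones had 5 to 6, LoVo had 5 to 6, the difference between lines had 6 and MDST8 WT against LoVo control had 8. The single call in clone 2.2 came without WT replicate B, where EFNA5 was lost. With the replicate block, the MDST8 clones kept counts of 3, 2, 5, 5 and 4 called members and 5 among the clones, and it changed no call of a member. The letters showed no pairing of the libraries (median correlation -0.02 over 45 same-letter pairs and 0.004 over 90 pairs of different letters). DESeq2, RLE scaling, voom and the compared groups alone also gave the same counts in each comparison run. Upper-quartile scaling, under which the median of all LoVo genes was 0.10 in place of 0.01, added EPHA2 in LoVo (0.65, adjusted p = 1.10e-07). Without the filter on low counts 13894 genes were called between MDST8 WT and LoVo control, against 9158. On log2(count + 1), which has no scaling, EFNB3 was not called in clone 3.5 (0.56), and the share of higher calls over all genes was 74.3% in place of 64.1% in clone 3.2 and 71.0% in place of 56.7% in clone 3.6. Under these settings, signs that reversed were of values that were not called. With another setting, the difference between lines was -0.0071 for EPHA4 (filterByExpr) and 0.13 for EPHA5 (log2(count + 1)), TWIST1 in clone 3.6 was 0.0052 with upper-quartile scaling and 0.097 on log2(count + 1), FYN in clone 3.2 was 0.020 on log2(count + 1), and without the filter PTPN13 in clone 3.6 was -0.0045 and NKD1 in LoVo -0.029. With each library left out in turn, the values ran from -0.060 to 0.099 for EPHA4 and from -2.03 to 0.50 for EPHA5 (0 to 1 counts in LoVo) between lines, from -0.027 to 0.077 for PTPN13, from -0.11 to 0.081 for TWIST1 and from -0.25 to 0.029 for EPHB6 in clone 3.6, from -0.058 to 0.28 for EPHB6 in clone 1.1, from -0.071 to 0.097 for EFNA4 in clone 2.2 and from -0.12 to 0.020 for FYN in clone 3.2. An exchange of the LoVo labels, chosen after seeing the data, turned the difference between lines to -1.56 for EPHA4, -0.052 for EPHB3, 0.31 for EPHB4, 5.28 for EFNA5, -0.083 for EFNB1, 0.97 for EFNB2 and 2.57 for EFNB3, with 6 members called. The cause was not tested.

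Members with a LoVo peak numbered 2 within 1000 bp, 1 at p of at most 0.001 and 0 at q of at most 0.05. In MDST8, 0 had a peak at that q, and 5 to 9 under the other settings. Depth limits EFNA1 in MDST8 and EFNA5 and EFNB3 in the LoVo libraries labelled TWIST1 shRNA, where few reads were counted.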
